A study of Mus musculus with 4 samples.

Results

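Genes of intraflagellar transport, the BBSome and the ciliary transition zone were described across 6 cell classes of the mouse retina. The set was a fixed list of 47 gene symbols, matched to the Ensembl gene identifiers of the deposited isoform table, and all 47 were present among its 13452 Ensembl genes. It was divided by role into 11 genes of intraflagellar transport complex B (IFT-B), 6 of complex A (IFT-A), 9 of the BBSome and its chaperones, 12 of the MKS module and 4 of the NPHP module of the transition zone, and 5 of the photoreceptor connecting cilium and related ciliary proteins. Intraflagellar transport moves trains of IFT-B and IFT-A along the microtubules of a cilium, and the BBSome is a coat-like complex that rides on these trains and carries membrane proteins out of the cilium. The transition zone, built from the MKS and NPHP modules, is the gate at the base. In a photoreceptor the transition zone is stretched into the connecting cilium, through which every protein of the outer segment passes, and loss of many of these genes causes retinal degeneration.

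The retinas came from male C57BL6/J mice, wild type, and were dissociated with papain; cDNA of single cells was read in full length on a nanopore instrument. Of the 4 libraries, 2 carried no enrichment (1 of these at postnatal day 40), 1 carried the label CD73 enrichment (postnatal week 8) and 1 the label CD90.2 enrichment (postnatal month 4). The deposited columns were cell classes and named no library, so each class was 1 pooled sample, nothing had a replicate and no test between classes could be made. Intervals are 95% and cover counting error only, because each class is 1 pooled column. Several reads can come from 1 molecule, and the intervals are too narrow where reads were not collapsed. Levels are given as counts scaled to 1000000 in the column (CPM) and are compared within a gene between classes, not between genes; gene positions are on GRCm38.

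Column totals ran from 3509890 counts in ganglion cells to 55437340 in rods. The limit used for a count of 0, 3 counts, was thus 0.855 CPM in ganglion cells, 0.489 in Müller glia, 0.411 in cones and 0.0541 in rods. All 36 of the class markers examined, 6 a class, were highest in their own column. Markers of other cells were not absent: the summed level of 6 rod markers was 20.5% of its rod value in cones, 6.85% in Müller glia and 1.89% in bipolar cells, and all 6 were at 0 in ganglion cells. All 6 cone markers were at 0 there too, which was so in no other column, and whether that column had been filtered is not given in the sources used here. The Müller glia column had the highest summed levels of markers of pigment epithelium (8805 CPM, against 2.85 to 62.4 elsewhere) and endothelium (27.2 CPM, against 0 to 1.10), and microglial markers were at 1217 CPM there and at 560.1 CPM in rods. Ift57, Wdr35, Tctn1, Invs and Sdccag8 were the members highest in that column, and the part of these other cells in their levels was not tested.

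Most ciliary genes of the set were higher in rods than in the inner retina. With a minimum of 50 counts over the 6 columns, 45 of the 47 could be compared, and 30 had a rod level at least 2-fold above the mean of the amacrine, bipolar, Müller glia and ganglion columns. Over all genes with this minimum the share past 2-fold was 25.6%. Only 4 members, Ift20, Wdr19, Wdr35 and Nphp4, were at least 2-fold below, where the share over all genes was 33.7%. The median member stood at a ratio of 2.46, and the median gene at 0.958. The minimum was on the sum over columns, and some members reached it only through their high class. In rods these were Lca5 (81 of 89 counts), Ttc21b (62 of 88), Tmem67 (104 of 135) and Cep290 (130 of 172). Nphp4, called lower, reached it only with its 56 amacrine counts. With columns thinned to the smallest total, 23 of 32 members were higher (22.1% of all genes), without Lca5, Ttc21b, Tmem67 and Cep290. More cells with the RNA and more RNA a cell could not be told apart in these pooled columns. Of the 30 higher members, 11 had 0 counts in at least 1 of the 4 inner retinal columns. In the mean such a column counts as 0, so a ratio printed for it is an upper value. Its interval does not cover what a count of 0 allows. A lower value, called the bound, was formed with each such column set to 3 counts. The bound keeps rods and the other columns at their measured levels, so it carries no counting error. The exact interval of a 0 also reaches higher, to 1.051 CPM in ganglion cells against the 0.855 of 3 counts. The words at least, where printed with the bound, hold for this setting only. All 30 stayed at or above 2-fold at the bound, with counting error left out, where the share of all genes was 22.0%. Bbs5, Bbs7, Bbs9, Rpgrip1 and Mak were at least 10-fold above at the bound too. In 23 of the 30 higher members the lower end of the ratio's interval was at or above 2. Of the 4 lower members, Wdr19 had an interval that reached 0.721. In 28 of these 30 higher members the cone level, relative to the rod level, exceeded the 20.5% of the rod markers, in 23 the Müller glia level exceeded the 6.85%, and in all 30 the bipolar level exceeded the 1.89% of the rod markers.

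Rods held the highest CPM for 29 of the 45 members, while 25% of all genes peaked there. Amacrine cells were highest for 6 members (19.9% of all genes), Müller glia for 5 (18.1%), cones for 3 (8.53%), bipolar cells for 2 (13.9%) and ganglion cells for 0 (14.5%). In 7 of the 29 the interval of the rod level overlapped that of the next class. Taken against each class in turn, rods were at least 2-fold above amacrine cells in 28 members (33.6% of all genes), above bipolar cells in 24 (27.1%), above cones in 15 (24.8%), above Müller glia in 26 (30.6%) and above ganglion cells in 28 (33.7%). The smallest excess over the background was thus against the other photoreceptor.

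**Figure D1:**
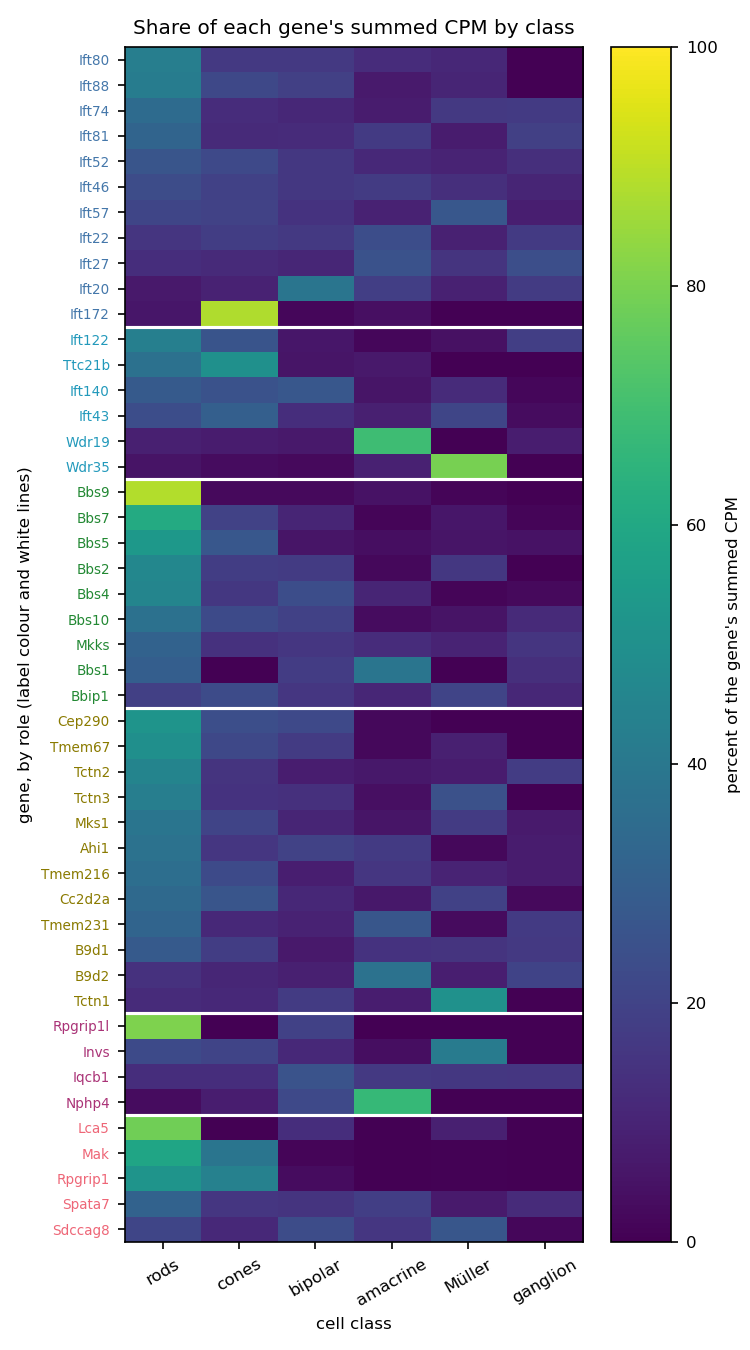
Share of each gene's summed CPM found in each of the 6 cell classes, for all 47 genes, with genes in rows grouped by role and classes in columns. The colour runs from 0 to 100 percent; rods were the highest class for 29 of the 45 genes with at least 50 counts, and the bright cells outside rods include the low-count genes Ift172 (cones), Wdr19 and Nphp4 (amacrine cells) and Wdr35 (Müller glia).

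In cones fewer members passed the same limit. The cone level was at least 2-fold above the mean of the 4 inner retinal columns in 16 members, beside 15.1% of all genes, and at least 2-fold below it in 4 members, beside 34.2% of all genes. The median member stood at 1.45 and the median gene at 0.779. Without the ganglion column 12 remained past the limit (12.6% of all genes), with Ift88, Ift140, Bbs2, Mks1 and Tmem216 lost and Tctn2 gained. With columns at 0 set to 3 counts 13 did (12.6%), with Bbs2, Tmem67 and Cep290 lost. All 16 were also among the 30 members higher in rods, with the 4 inner retinal columns shared by both comparisons, and 0 members passed 2-fold in cones without doing so in rods. For Bbs1 and Lca5 the cones had 0 counts and too little depth for a bound, so no cone ratio was formed.

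**Figure D2:**
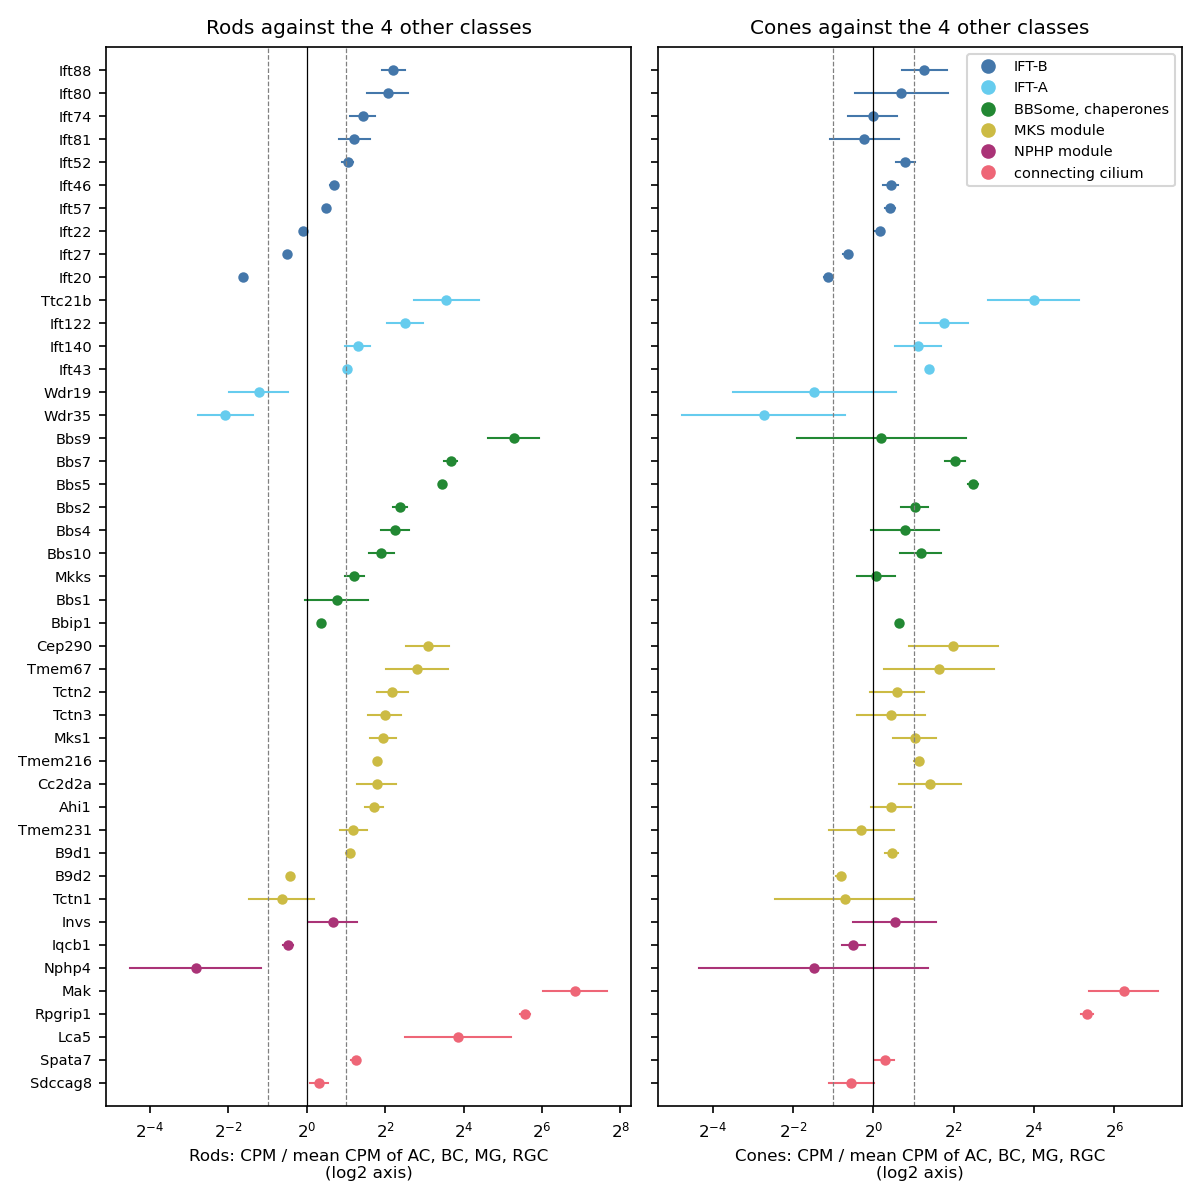
Ratio of the rod level (left) and of the cone level (right) to the mean CPM of amacrine, bipolar, Müller glia and ganglion columns, for the 45 genes with at least 50 counts, on a log2 axis. Points are genes coloured by role, bars are approximate 95% intervals from counting error in which columns at 0 count as 0, and dashed lines mark 2-fold; 30 genes lie right of the upper line for rods and 16 for cones, and Mak and Rpgrip1 lie farthest right in both.

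In IFT-B, the complex that carries tubulin and other cargo outwards, 5 of 10 comparable genes were at least 2-fold higher in rods and 1 was lower, with a median ratio of 1.84. Ift88 (chr14:57424062-57517936), a core subunit whose mutation gives the classical mouse model of short cilia, was at 8.73 CPM in rods, 4.52 in cones, 3.93 in bipolar cells, 1.49 in amacrine cells and 2.12 in Müller glia, with 0 counts in ganglion cells. The rod level exceeded every other interval, and the ratio was 4.63 (3.77 to 5.69), or at least 4.16 at the bound. Ift80 (chr3:68892499-69004570), a peripheral subunit, was at 2.47 CPM in rods, 0.958 in cones, 0.965 in bipolar cells, 0.746 in amacrine cells and 0.652 in Müller glia, with 0 counts in ganglion cells, a ratio of 4.18 (2.90 to 6.04), at least 3.07 at the bound. Ift20 (chr11:78536361-78541737), which also serves cargo sorting at the Golgi apparatus, went the other way. It was at 72.1 CPM in rods and 101 in cones, against 411 in bipolar cells, 196 in amacrine cells, 182 in ganglion cells and 96.7 in Müller glia. Rods were its lowest class and bipolar cells its highest, and the ratio was 0.325 (0.314 to 0.338). Ift27 (chr15:78159463-78174107), a small GTPase of the complex, was at 121.6 CPM in rods, 111 in cones, 98.4 in bipolar cells, 233 in amacrine cells, 140.2 in Müller glia and 222 in ganglion cells, a ratio of 0.702. The remaining subunits Ift74, Ift81 and Ift52 were at 2.68, 2.31 and 2.06, and Ift46, Ift57 and Ift22 at 1.61, 1.40 and 0.940. Ift52 fell under 2-fold with either scaling alternative and without the Müller glia column. Ift172, with 44 counts of which 23 were in cones, was too low to compare.

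IFT-A, which drives the return to the base and the entry of membrane proteins, was split. Ift122, Ift140, Ttc21b and Ift43 were at least 2-fold higher in rods and also in cones, and Wdr19 and Wdr35 were at least 2-fold lower in both. The lower cone ratios rested on 2 counts each, at 0.361 (0.0884 to 1.47) for Wdr19 and 0.150 (0.0364 to 0.615) for Wdr35. Ttc21b (chr2:66184327-66256617), the subunit also called IFT139, had 62 counts in rods and 11 in cones against 5 in bipolar cells, 10 in amacrine cells and 0 in Müller glia and ganglion cells. The levels were 1.12 CPM in rods and 1.51 in cones, whose intervals overlapped, and 0.172 and 0.207 in bipolar and amacrine cells. The rod ratio was 11.8 with both empty columns taken as 0, and at least 2.60 at the bound. Ift122 (chr6:115853470-115926699) was at 11.4 CPM in rods, 6.84 in cones, 1.62 in bipolar cells, 0.477 in amacrine cells, 1.14 in Müller glia and 4.84 in ganglion cells, a ratio of 5.65 (4.11 to 7.78). Ift43 was the most counted, with 37828 counts, and its call was marginal: the ratio of 2.04 fell under 2 with either scaling alternative and without the ganglion column, as did the 2.46 of Ift140 without the ganglion column. Wdr19 (chr5:65199696-65260415), also called IFT144, had 121 of its 149 counts in amacrine cells, at 2.51 CPM, and stood at 0.325 in rods, 0.274 in cones, 0.241 in bipolar cells and 0.285 in ganglion cells, with 0 counts in Müller glia. Wdr35 (chr12:8973892-9028847), also called IFT121, had 24 counts in rods, 36 in amacrine cells, 39 in Müller glia, 6 in bipolar cells, 2 in cones and 0 in ganglion cells. Its levels were 0.433 CPM in rods, 0.746 in amacrine cells and 6.36 in Müller glia, the column with the markers of pigment epithelium, and its ratio was 0.237. Without the Müller glia column its log2 ratio turned from -2.08 to 0.45.

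Among the BBSome and its chaperones, 7 of 9 genes were at least 2-fold higher in rods and 0 were lower, with a median ratio of 4.78. Bbs9 (chr9:22475715-22888280), a scaffold subunit, had 515 of 551 counts in rods: the levels were 9.29 CPM in rods, 0.274 in cones, 0.276 in bipolar cells, 0.518 in amacrine cells and 0.163 in Müller glia, with 0 counts in ganglion cells. The rod interval lay above that of every other class at a ratio of 38.8, at least 20.5 at the bound, and the cone ratio was 1.14 from 2 counts. Bbs7 (chr3:36573142-36613477), which pairs with Bbs2 in the complex, was at 92.2 CPM in rods, 29.7 in cones, 15.6 in bipolar cells, 2.05 in amacrine cells, 8.97 in Müller glia and 2.28 in ganglion cells, a ratio of 12.7 (11.4 to 14.3). Bbs5, a lipid-binding subunit, was at 359.7 CPM in rods and 182 in cones against 23.7 to 37.0 in the 4 other classes, a ratio of 11.0. Bbs2, Bbs4 and the chaperonin-like Bbs10 and Mkks were at 5.18, 4.78, 3.72 and 2.32. Bbip1 (chr19:53929861-53944627), the smallest subunit, and Bbs1, the subunit that contacts the recruiting GTPase ARL6, stayed between the limits. Bbip1 was at 305 CPM in rods, 372 in cones, 259 in bipolar cells, 175 in amacrine cells, 332 in Müller glia and 183 in ganglion cells, a ratio of 1.28. Bbs1 had only 87 counts, 35 of them in rods (0.631 CPM), 40 in amacrine cells (0.829), 11 in bipolar cells (0.379), 1 in ganglion cells and 0 in cones and Müller glia, and its ratio of 1.69 had an interval of 0.976 to 2.93. Within this 1 complex the intervals of Bbs9, Bbs5 and Bbip1 did not overlap.

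The MKS module, a set of membrane and B9-domain proteins of the transition zone, had the largest share of genes higher in rods: 10 of 12, with 0 lower and a median ratio of 3.46. Cep290 (chr10:100487558-100574840), the large coiled-coil protein that links microtubules to the membrane and is a frequent cause of Leber congenital amaurosis, had 130 of 172 counts in rods. The levels were 2.34 CPM in rods, 1.09 in cones, 1.00 in bipolar cells and 0.104 in amacrine cells, with 0 counts in Müller glia and ganglion cells, a ratio of 8.50 with both empty columns taken as 0 and at least 3.83 at the bound. Tmem67 (chr4:12039355-12090020), the receptor-like protein meckelin, was at 1.88 CPM in rods, 0.821 in cones, 0.655 in bipolar cells, 0.0829 in amacrine cells and 0.326 in Müller glia, with 0 counts in ganglion cells, a ratio of 7.05, at least 3.91 at the bound. Tctn2, Tctn3, Mks1, Tmem216, Cc2d2a and Ahi1 were at 4.55, 3.97, 3.84, 3.47, 3.44 and 3.26, and Tmem231 and B9d1 at 2.27 and 2.13. Tmem231 fell under 2-fold without the Müller glia column. Cc2d2a was at 3.73 CPM in rods, 2.87 in cones, 1.21 in bipolar cells, 0.725 in amacrine cells, 2.12 in Müller glia and 0.285 in ganglion cells. B9d1 fell under 2-fold with scaling by the median of ratios. The exceptions were B9d2 and Tctn1. B9d2 (chr7:25680780-25686558), a partner of B9d1, was at 127 CPM in rods, 96.3 in cones, 79.6 in bipolar cells, 339 in amacrine cells, 77.0 in Müller glia and 183 in ganglion cells, so amacrine cells were highest and the ratio was 0.749. Tctn1 had 70 counts in all, at 0.433 CPM in rods, 0.411 in cones, 0.620 in bipolar cells, 0.290 in amacrine cells and 1.79 in Müller glia with 0 counts in ganglion cells, and its ratio of 0.640 had an interval from 0.361 to 1.14.

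In the NPHP module 0 of 3 comparable genes were at least 2-fold higher in rods and 1 was lower. Iqcb1 (chr16:36828385-36872721), also called NPHP5 and a binding partner of CEP290, varied less than 2-fold, at 16.5 CPM in rods, 16.3 in cones, 31.7 in bipolar cells, 20.6 in amacrine cells, 20.1 in Müller glia and 19.7 in ganglion cells, a ratio of 0.719 (0.654 to 0.790). Invs (chr4:48279760-48431954), the inversin of the proximal cilium, was at 1.5 CPM in rods, 1.37 in cones, 0.758 in bipolar cells, 0.249 in amacrine cells and 2.77 in Müller glia, with 0 counts in ganglion cells, a ratio of 1.58 (1.04 to 2.41). Nphp4 had 71 counts, of which 56 were in amacrine cells (1.16 CPM), 11 in bipolar cells (0.379), 3 in rods (0.0541) and 1 in cones (0.137), with 0 in Müller glia and ganglion cells. Its ratio of 0.141 (0.0442 to 0.447) rested on 3 rod counts and on 1 amacrine isoform. Rpgrip1l, with 9 counts of which 8 were in rods, was too low to compare.

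The 2 members with the largest rod ratios were proteins of the photoreceptor cilium itself. Mak (chr13:41025008-41079706, minus strand, GRCm38), a kinase that restrains the length of the photoreceptor axoneme, was at 21.1 CPM in rods and 14 in cones, against 0.517 in bipolar cells, 0.0622 in amacrine cells and 0.163 in Müller glia, with 0 counts in ganglion cells. Both photoreceptors lay above all other classes, and the ratio was 114 in rods and 75.2 in cones, at least 52.9 and 35.0 at the bound. Rpgrip1 (chr14:52110704-52163546, plus strand), which anchors the disease protein RPGR in the connecting cilium, was at 338 CPM in rods and 286 in cones, against 22.0 in bipolar cells, 1.58 in amacrine cells and 5.05 in Müller glia, with 0 counts in ganglion cells. Its ratios were 47.2 in rods and 39.9 in cones, at least 45.8 and 38.8 at the bound. Lca5, lebercilin, had 81 of 89 counts in rods and a ratio of 14.5 with the empty amacrine and ganglion columns taken as 0, at least 4.42 at the bound. Spata7 (chr12:98628157-98669815), a partner of RPGRIP1 in the connecting cilium, was at 48.5 CPM in rods, 24.6 in cones, 23.1 in bipolar cells, 28.5 in amacrine cells, 11.1 in Müller glia and 18.8 in ganglion cells, a ratio of 2.38. Sdccag8 (chr1:176814660-177020437), a protein of centrosomes and basal bodies, was at 7.0 CPM in rods, 3.83 in cones, 7.72 in bipolar cells, 5.22 in amacrine cells, 8.97 in Müller glia and 0.570 in ganglion cells, a ratio of 1.25.

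Other ciliary genes outside the set gave a like picture. Of 41 listed motors, small GTPases, axonemal and further IFT, BBSome and transition zone genes, 39 were in the table and 38 had 50 counts. At least 2-fold higher in rods were 30 of the 38, with 3 lower and a median ratio of 4.61. The 3 of 5 listed motile genes that were in the table summed to 0.776 CPM in rods, 4.86 in bipolar cells and 8.83 in ganglion cells.

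The members had more isoforms, and more of their counts lay outside the reference annotation, than genes at large. They had 189 isoforms, a median of 4 a gene against 2, and 138 of these (73.0%, 66.1 to 79.2) had no Ensembl transcript identifier, against 60.3% for all genes. By counts, unannotated isoforms carried 17.9% of the members' counts and 5.58% of all. For 11 of the 47 members every isoform was unannotated (Ift140, Ift172, Ttc21b, Wdr19, Bbs4, Bbs9, Cep290, Cc2d2a, Nphp4, Rpgrip1 and Rpgrip1l). Among all genes 20.0% had no annotated isoform, so this did not set the members clearly apart. For 5 members every isoform was annotated (Ift20, Ift43, Bbs1, Bbs5 and Tctn2). The unannotated share of member counts was 26.2% in rods and 20.5% in cones against 6.64% to 9.03% in the 4 other classes, where all genes gave 6.92% in rods and 4.17% to 5.43% elsewhere. Rpgrip1 held much of this, and without it the share was 15.1% in rods and 8.74% in cones. Mak had 13 isoforms, Cep290 12, Cc2d2a 10 and Ift122 and Bbs4 7 each.

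Transcript models were deposited for 176 of the 189 isoforms, those with a rod count, and the 13 without one held 0.121% of the counts. Of the 770 distinct junctions of the members' models, 716 (93.0%) were in GENCODE M21, and all 51 annotated models had the introns of their M21 entry. Among the 125 unannotated models, 55 had an intron outside M21, 37 were a part of an annotated intron chain, 27 joined annotated introns in a new combination and 6 were a single exon. The part chains held 24366 counts and the models with an intron outside M21 held 4372. Set against the isoform with the most counts in its gene, other last exons (59 of 129), other first exons (53) and skipped exons (52) were the usual differences, and a retained intron was found in 1. A model that merely starts or stops at another exon of the same chain was scored as an other first or last exon. These counts therefore include models that are shorter or longer than the leading one, and do not count alternative exons alone. An isoform of Ift22 (56 counts), 1 of Ift27 (16 counts) and the 3 isoforms of Mkks overlapped another gene on the same strand, so their counts are uncertain.

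Many of the long ciliary genes were not represented from start to stop codon. For each gene the M21 coding transcript with the longest coding sequence was taken, and the share of modelled counts was computed whose exons hold both its start and its stop codon; this measure was added after the data were seen. Of 42 members with at least 50 modelled counts, 15 had less than 50% of their counts in such models, a share close to the 34.1% of all genes, and in 7 the share was 0 (Ift140, Ttc21b, Bbs9, Cc2d2a, Tmem67, Invs and Rpgrip1). In 11 members at least 50% of counts lay in models with the start codon only, beside 15.4% of all genes. The length of the reference went with this. Under 50% were 0 of 7 members with a reference under 1500 nt, 2 of 14 with 1500 to 3000 nt and 13 of 21 with 3000 nt or more, where all genes of these lengths gave 17.5%, 20.8% and 52.1%. Models with the start codon only held at least 50% of counts in 9 of the 21 longest, beside 26.5% of all genes of that length. Counts moved with length as well, with a median total of 23831 for the members with short references and 504 for those with long ones. With any complete coding transcript of the gene allowed, 14 members stayed under 50%, beside 26.5% of all genes, and Tmem67 rose to 93.3%, since its annotated isoform of 28 exons, with 102 of 135 counts, starts at another codon. Whether the short models are whole RNAs or incomplete cDNA was not tested.

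**Figure D3:**
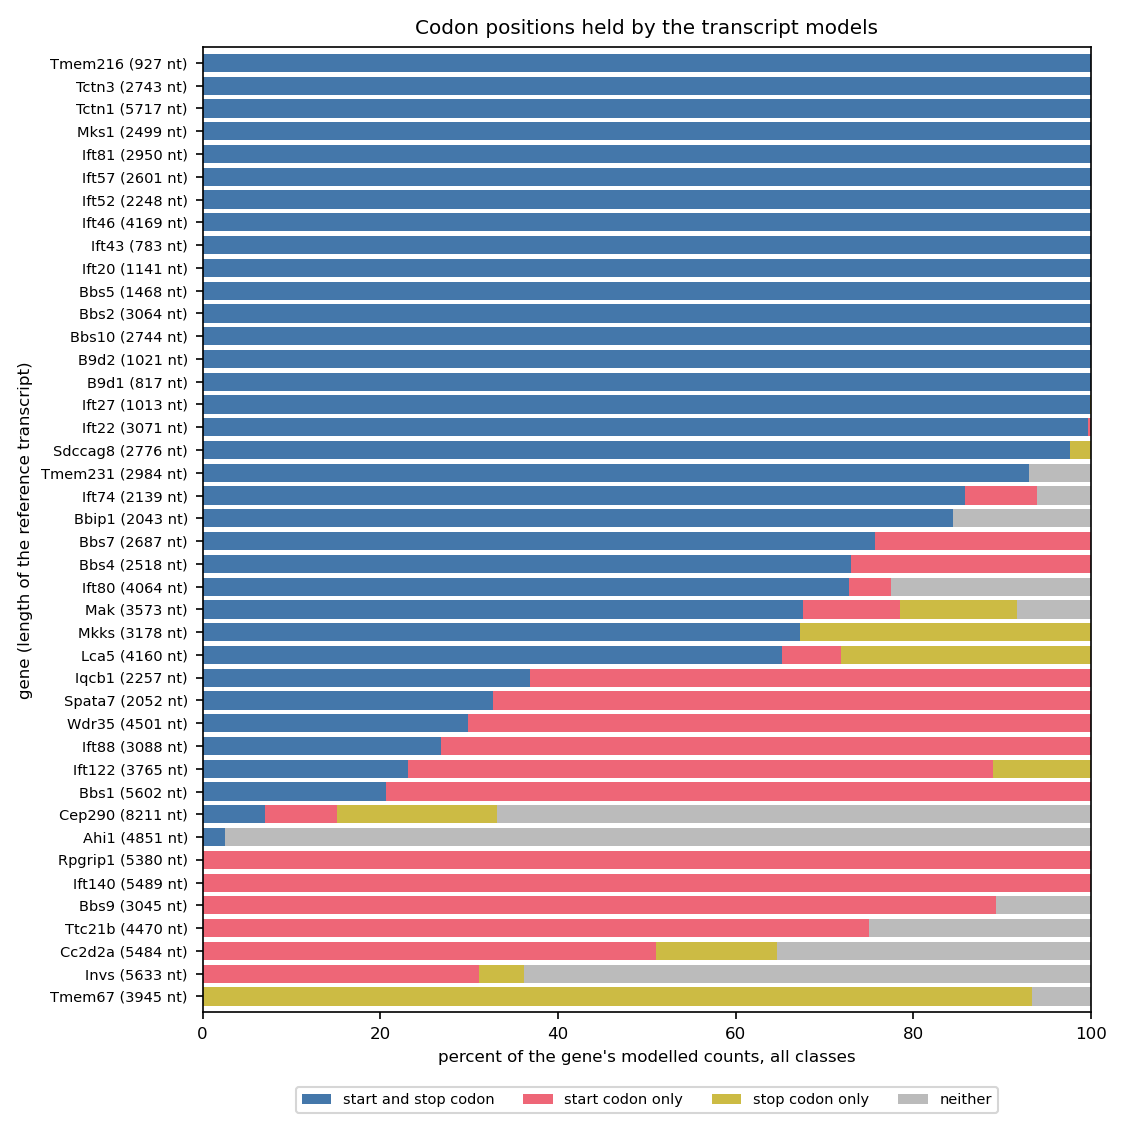
Percent of each gene's modelled counts, all classes summed, in models whose exons hold both the start and the stop codon of the M21 reference, the start codon only, the stop codon only or neither, for 42 genes with the length of the reference in parentheses. The 7 genes with references under 1500 nt lie at the top at or near 100 percent, and Rpgrip1 and Ift140 have all counts in models with the start codon only.

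Rpgrip1 was the clearest case. Its reference has 25 exons and 5380 nt, and the table listed 3 isoforms, all unannotated, all with the start codon and without the stop codon. The model with 7 exons and 1258 nt (chr14:52110922-52126776) held 18809 of 21585 counts: 16337 in rods, 1789 in cones, 601 in bipolar cells, 64 in amacrine cells, 18 in Müller glia and 0 for ganglion cells. It made up 87.1% of the gene's counts in rods, 85.6% in cones and 94.1% in bipolar cells, so it led in each of these classes. Models of 14 and 10 exons held 1651 and 1125 counts. All counts of the gene, and so its rod and cone levels, belong to models that end before the stop codon of the long form.

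The last exon of the 7-exon model had the 5′ end of a reference exon and ran on for 392 bases past its 3′ end, into the following intron, and those of the 14-exon and 10-exon models did so for 2011 and 230 bases. The same layout was found in other members. Of 35 unannotated models of 2 or more exons with the start codon only, 21 in 12 members ran past a reference exon in this way, and these held 25181 of 27629 counts, or 3596 of 6044 without Rpgrip1. The share over all genes was not computed. The overrun was 245 bases in the leading model of Ift88, 890 in that of Ift122, 1060 in that of Bbs9 and 897 in the 5-exon model of Bbs7. Whether these ends are sites of polyadenylation or of priming within an intron was not tested. Ift88 had 474 of 716 counts in a model with the first 17 of its 26 exons and 148 in the annotated 26-exon form. The short model made up 68.2% of counts in rods, 71.1% in bipolar cells and 40.3% in amacrine cells. Ift122 had 282 of 777 counts in an 11-exon model and 149 in a 13-exon model, both with the start codon of a 30-exon reference, and 133 in an annotated form of 29 exons. Single-exon models led in Spata7, with 3398 of 5045 counts, and in Ahi1, the jouberin gene, with 1097 of 1208. The Spata7 model took 84.3% of counts in amacrine cells, 61.8% in rods, 61.3% in bipolar cells and 38.2% in Müller glia. A single-exon model of 996 nt with neither codon of Bbip1 held 5956 counts, 26.5% of the gene's counts in rods and 0.311% to 9.21% in the other classes. In Cep290, with 54 exons and 8211 nt, no model had more than 14 exons, and the 12 counts with both codons came from a model of 3 exons and 827 nt. In Iqcb1 a 13-exon model without the stop codon held 1606 of 3141 counts, and models with both codons made up 60.5% of counts in rods (57.3 to 63.7) and 14% in amacrine cells (11.9 to 16.3), classes in which the gene's level differed little (16.5 and 20.6 CPM). In Mak such models made up 71.2% of counts in rods (68.5 to 73.8) and 31.4% of 102 in cones (22.5 to 41.3), where a 6-exon model with the start codon only led with 44 counts.

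**Figure D4:**
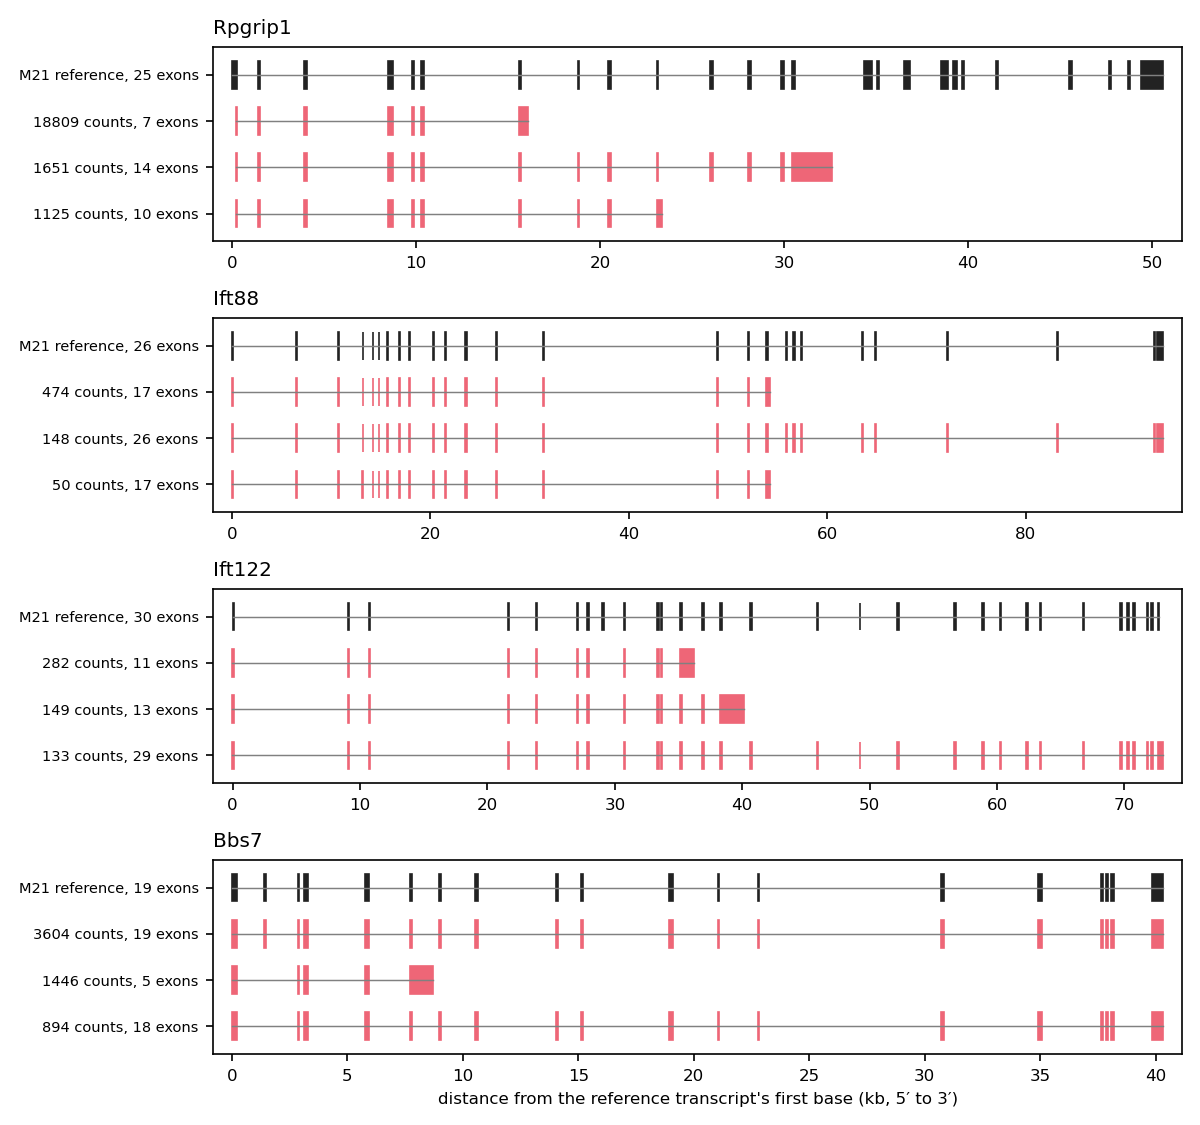
Exon maps of Rpgrip1, Ift88, Ift122 and Bbs7, with distance in kb from the first base of the M21 reference transcript. Black boxes are reference exons and red boxes the 3 most counted models of each gene, labelled with their counts over all classes; the leading models of Rpgrip1, Ift88 and Ift122 begin at the first exons and end well before the reference does, and Bbs7 has a 5-exon model of this kind beside its full chain.

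Internal exons were skipped in some isoforms of many members, for which no share over all genes was computed. An internal exon kept by some models and skipped by others between the same neighbours, with at least 100 counts for the choice, was found for 34 distinct exons in 23 members, 29 of them coding. Such a choice of an exon within a pair of neighbours had 100 counts in 41 instances. Of 36 coding instances, 13 were of a length that is a multiple of 3 and 23 were not. The junction that skips the exon was in M21 for 22 of the 41. In 30 instances with at least 20 counts in both rods and amacrine cells, inclusion was lower in rods in 12 and higher in 9 with intervals that did not overlap, and in 30 with 20 counts in rods and bipolar cells it was lower in rods in 9 and higher in 2.

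For exon choices described next, 5 coding exons are shown with 15 bases of the neighbouring exons in lower case and the skipped exon in capitals, 5′ to 3′ on the gene's strand, from GENCODE M21 transcripts on GRCm38. The exons of Bbs7 and Mak are skipped by unannotated isoforms restricted to rods, and those of Bbs5, B9d1 and Ift52 were chosen after their values were seen.
Bbs7 exon 2: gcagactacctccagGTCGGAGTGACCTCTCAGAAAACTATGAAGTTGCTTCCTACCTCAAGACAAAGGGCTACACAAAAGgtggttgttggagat
Mak exon 12: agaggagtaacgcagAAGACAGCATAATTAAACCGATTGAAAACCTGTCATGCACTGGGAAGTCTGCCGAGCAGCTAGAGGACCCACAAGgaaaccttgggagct
Bbs5 exon 5: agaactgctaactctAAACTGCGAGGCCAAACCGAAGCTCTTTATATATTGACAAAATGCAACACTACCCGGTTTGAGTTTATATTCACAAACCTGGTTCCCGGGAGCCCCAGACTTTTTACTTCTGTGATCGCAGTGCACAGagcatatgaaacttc
B9d1 exon 4: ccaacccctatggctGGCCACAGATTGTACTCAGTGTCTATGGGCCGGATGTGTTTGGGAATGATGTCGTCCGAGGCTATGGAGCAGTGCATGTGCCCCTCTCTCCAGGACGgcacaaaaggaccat
Ift52 exon 10: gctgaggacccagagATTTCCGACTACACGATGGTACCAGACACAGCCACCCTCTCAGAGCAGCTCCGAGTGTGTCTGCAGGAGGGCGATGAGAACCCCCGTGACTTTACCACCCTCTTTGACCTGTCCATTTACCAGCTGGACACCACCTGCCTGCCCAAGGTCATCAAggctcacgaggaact
The exons of Bbs7 (66 nt) and Mak (75 nt) keep the reading frame when they are skipped, and those of Bbs5 (128 nt), B9d1 (97 nt) and Ift52 (155 nt) do not.

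Exon 2 of Bbs7 (chr3:36612012-36612077, minus strand) was kept in 58.3% of 5111 counts in rods (57.0 to 59.7), 67.7% of 217 in cones (61.1 to 73.9), 80.8% of 454 in bipolar cells (76.9 to 84.4), 52.5% of 99 in amacrine cells and 89.1% of 55 in Müller glia. Rods were below cones, bipolar cells and Müller glia and overlapped amacrine cells. The skipping isoforms were an 18-exon form (894 counts) and the 5-exon model (1446 counts), of which 1370 counts were in rods and 6 in cones. The order of rods and cones rested on the 5-exon model. Among models with both codons, which leave it out, the exon was kept in 2981 of 3741 counts in rods and 147 of 211 in cones. Rods were then above cones, and bipolar cells had 367 of 425. Exon 12 of Mak (chr13:41032525-41032599, minus strand), in its most common setting, was kept in 65.4% of 523 rod counts (61.1 to 69.5) and 50% of 24 cone counts (29.1 to 70.9), so no difference was detectable at this depth. Exon 5 of Bbs5 (chr2:69654246-69654373, plus strand) was kept in 90.4% of 19940 counts in rods, 94.9% in cones, 94.0% in bipolar cells, 97.8% in both amacrine cells and Müller glia, and 74.4% of 117 for ganglion cells (65.5 to 82.0). Ganglion cells were lowest and apart from all others.

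Exon 4 of B9d1 (chr11:61509072-61509168, plus strand), in its most common setting, was kept less in amacrine and ganglion cells than elsewhere. There it was kept in 79.5% of 3424 counts in rods (78.1 to 80.9), 84.8% of 349 in cones, 81.8% of 512 in bipolar cells and 88.2% of 238 in Müller glia, but in 55.3% of 1908 in amacrine cells (53.0 to 57.5) and 40.7% of 162 in ganglion cells (33.1 to 48.7). In a setting of 2435 counts it was kept in 38.5% in rods and 0% of 28 counts in ganglion cells. Amacrine cells, at 8.15% (5.71 to 11.2), then overlapped Müller glia, at 16.7% of 60 counts (8.29 to 28.5). Exon 10 of Ift52 (chr2:163036559-163036713, plus strand) was kept in 76.6% of 1875 counts in rods (74.7 to 78.5), below the 93.8% in cones, 90.4% in bipolar cells, 93.9% in amacrine cells (91.9 to 95.5) and 100% of 61 counts in ganglion cells. The interval of Müller glia, 87.0% of 77 counts (77.4 to 93.6), overlapped that of rods. The junction that skips this exon was not in M21. Exon 2 of Ift57 (163 nt) was kept in 81.7% of rod counts and 77.0% of ganglion cell counts against 88.8% to 96.8% in the other 4 classes.

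**Figure D5:**
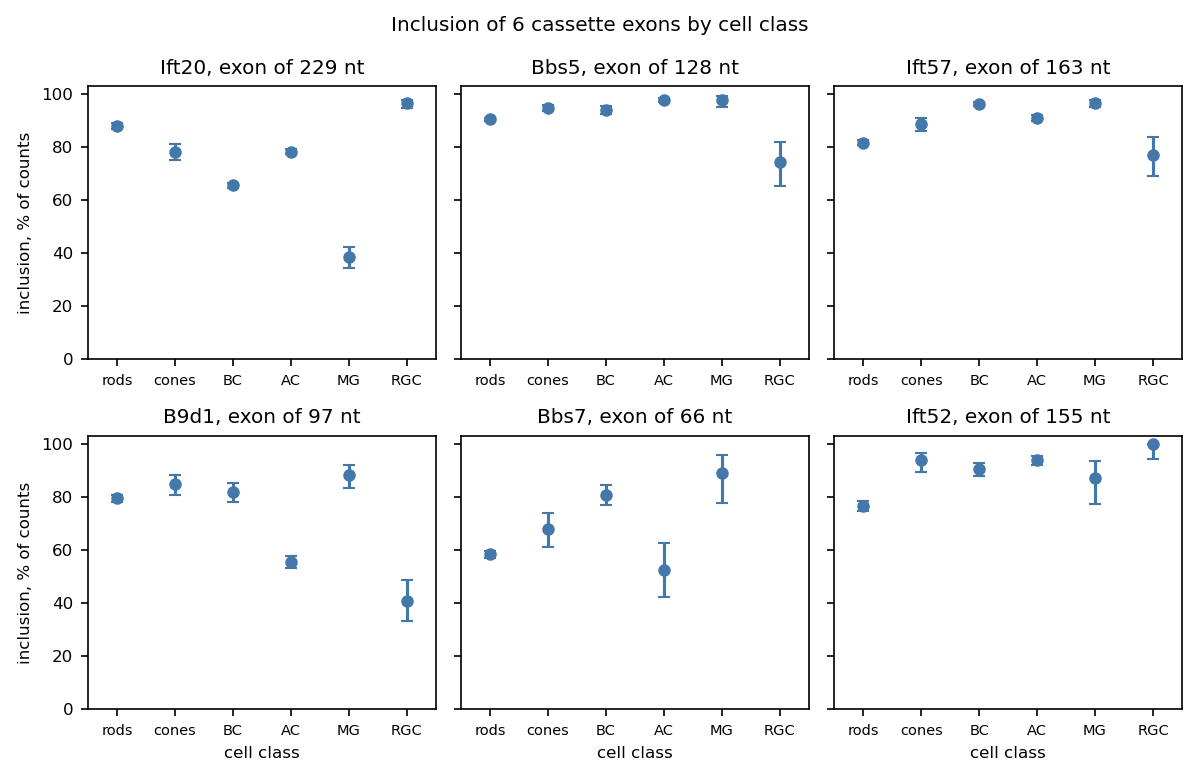
Inclusion of 6 cassette exons, as percent of counts in models with the 2 neighbouring exons, in each cell class with at least 20 counts. Points are the pooled class values and bars are exact 95% intervals from counting error; Ift20 in Müller glia (38.4%) and B9d1 in ganglion cells (40.7%) are the lowest points.

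A change of the leading isoform between classes was asked for next, as a different most abundant isoform and a share that differed by at least 50 percentage points. With 20 counts in each class it was met in at least 1 pair for 6 of 37 comparable members, Ift20, Ift80, Bbs4, Cc2d2a, Invs and Wdr35, while 25% of all genes met it. With 100 counts it was met by 1 of 26, beside 10.3% of all genes. That gene was Ift20, whose 229-nt second exon (chr11:78538510-78538738) lies outside the coding sequence. The exon was kept in 96.6% of 640 counts in ganglion cells (94.8 to 97.8), 87.9% of 3999 in rods, 78.3% of 9467 in amacrine cells, 78.2% of 737 in cones, 65.5% of 11936 in bipolar cells and 38.4% of 593 in Müller glia (34.5 to 42.5). Müller glia alone had the 5-exon form in front, and both forms are annotated. Bbs4, another BBSome subunit, changed between amacrine cells, with 41 of 55 counts in a 15-exon model, and rods, with 87 of 274 in a 6-exon model that ends early and 65 in the long one.

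Isoforms with at least 10 counts and at least 80% of their summed CPM in 1 class were called restricted. Of 161 member isoforms with that depth 40 (24.8%) were restricted, beside 26.9% of all isoforms. Their classes were 24 in rods, 10 in amacrine cells, 3 in Müller glia, 2 in cones, 1 in ganglion cells and 0 in bipolar cells, so rods took 60% of the members' restricted isoforms and 25.4% of those of all genes. The filter was on counts summed over the columns, so an isoform could pass it through its own class alone. A column at 0 entered the share as 0, though a 0 allows 0.855 CPM in ganglion cells, 0.489 in Müller glia and 0.411 in cones. The 80% was therefore not established for isoforms of few counts, the Nphp4 isoform of 56 counts among them. Those with 50 counts or more were 11, in 6 members. The rod isoforms were the 5-exon form of Bbs7 (1446 counts, 88.9% of summed CPM in rods), 3 of Bbs9 (300, 134 and 58 counts), 1 of Ift122 (149) and 4 of Mak (135, 116, 107 and 61). The amacrine isoforms were 1 of Wdr19 (107 of 108 counts) and 1 of Nphp4 (56 of 56), neither of which had a rod count or a deposited model.

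The promoters of the set were searched for the X-box, the motif bound by RFX transcription factors, which are known regulators of ciliary genes. The motif was GTNNCC, then 2 bases, then GGNNAC; it reads the same on both strands, and any overlap with other motifs was ignored. In RefSeq promoters on GRCm38 of 300 bases, from 250 before to 50 after the start site, 13 of the 42 members with an entry (31.0%) held it, against 2.16% of 27025 genes and 2 of 34 of the other ciliary genes (5.88%). Those with a match, aligned on the motif in capitals with up to 8 bases on either side, are these, with the match nearer the start site for Ift22.
Ift22: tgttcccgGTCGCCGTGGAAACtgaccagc
Ift57: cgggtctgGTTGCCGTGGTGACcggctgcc
Wdr19: tttgcacgGTCTCCTGGGTGACgagaacgc
Bbs1: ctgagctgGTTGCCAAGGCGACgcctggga
Bbs4: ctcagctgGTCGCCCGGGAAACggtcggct
Bbs7: gcgccccgGTTGCCTTGGAAACcggccagc
Mks1: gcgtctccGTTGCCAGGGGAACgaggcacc
Tctn1: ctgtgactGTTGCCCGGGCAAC
Tctn2: gattggagGTTACCATGGCTACtggtcctc
Tmem216: tgtacgcaGTTTCCATGGGGACtgaacatg
Tmem231: cgccgtcgGTTGCCGTGGAGACtcggcgct
Ahi1: tagtctgaGTTACCTAGGCAACagcggcag
Nphp4: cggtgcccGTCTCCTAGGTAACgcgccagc
Of 14 matches, 12 lay within 100 bases of the start site; Ift22 held a pair of them. At least 2-fold higher in rods were 7 of 13 members with it (median ratio 2.27), and 19 of 27 without it (median ratio 2.46). A match is a description of letters in a window, and no match says nothing of the factor. Ift80, Ift81, Ift122, Tmem67 and Sdccag8 were not searched.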

How the data were processed

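Single-cell cDNA of mouse retina, made with 10x Genomics chemistry, was sequenced on a nanopore instrument in 4 libraries. The authors deposited whole-number counts per isoform in 6 class columns (amacrine, bipolar, cone, Müller glia, rod and retinal ganglion cells) and an annotation of transcript models whose source field names FLAIR, which assembles isoforms out of long reads, per the file headers. In the deposited annotation the other values used are exon coordinates; mm10 (GRCm38) is named in the submitters' processing notes. Whether reads were collapsed by molecular identifier, which libraries entered each column, and how cells were typed, doublets treated and isoforms filtered is not given in the sources used here. The labels' protocols describe magnetic separation, with removal of CD73-positive and selection of CD90.2-positive cells, while the series text speaks of cell sorting. Columns name no library, so replicates could not be compared, and 0 columns were left unused.

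Genes were matched by Ensembl identifier, isoforms of a gene were summed, and counts were scaled to 1000000 a column (CPM). Ratios of 2-fold or more were called over genes with at least 50 counts; a side with 0 counts in all its columns was set to 3 counts, a ratio was then formed only where that gave a bound, and 1 empty column among the 4 counted as 0 in their mean. Intervals of levels are exact Poisson, of shares exact Clopper-Pearson, and of ratios approximate on the log scale. Models were compared with GENCODE M21. Sequences of exons come from M21 transcripts and promoters from RefSeq. Tools were Python 3.11.15, pandas 2.3.3, numpy 2.4.6, scipy 1.17.1 and matplotlib 3.10.9; the trimmed mean of M-values and the median of ratios, used only as alternatives, were computed from their formulas. The rules were tested on simulated data. No p-value was computed.

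Genes given in every class were, in each role, the 2 with the highest and the 2 with the lowest rod ratio, members with a switch at 100 counts or a restricted isoform of 50 counts, the 5 richest in isoforms and those of the 5 most counted unannotated isoforms; others were named after their values were seen. The members and lists were chosen with earlier results of these data known. Alternative splice sites were not scored.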

Additional observations from a re-analysis of the deposited data

How the results depend on the processing

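The count of members at least 2-fold higher in rods was 30 of 45 (25.6% of all genes). It ran from 21 of 30 with at least 500 counts (23.5%) to 32 of 47 with no minimum beyond 1 count (24.4%). It was 23 of 32 with thinned columns (22.1%) and 22 of 33 with annotated isoforms only (25.1%). With 45 members compared, it was 28 for trimmed-mean scaling (23.4%), 27 for the median of ratios (22.7%) and 28 without the ganglion column (22.6%). It was 29 without Müller glia (29.6%) and 30 with each class at 0 set to 3 counts (22.0%), these last 2 settings added after seeing the data. The count lower (4 of 45) was 1 of 30 with at least 500 counts (27.1% of all genes), 1 of 32 with columns thinned to 3509890 counts (31.1%) and 2 of 33 with annotated isoforms only (32.0%). It was 3 of 45 without Müller glia (30.6%), 5 without the ganglion column (33.3%) and 5 with each class at 0 set to 3 counts (34.8%). For cones, the count higher (16 of 45) was 12 without the ganglion column (12.6% of all genes) and 13 with classes at 0 set to 3 counts (12.6%). The count lower in cones (4 of 45) was 1 of 30 with at least 500 counts (29.6% of all genes). It was 3 of 45 with either scaling, 5 without the ganglion column (34.4%) and 5 with each class at 0 set to 3 counts (37.2%). Wdr35 turned from lower to higher in rods without Müller glia, with a log2 ratio of 0.45. The unannotated share of isoforms (73.0%) was 50.6% with at least 100 counts and 17.9% when weighted by counts. Members with a switch (6) were 12 of 43 with at least 10 counts (35.4% of all genes), 1 of 26 with at least 100 counts (10.3%) and 14 of 37 at 25 percentage points (38.4%). Restricted isoforms (40) were 11 with at least 50 counts (11.1% of all isoforms) and 23 of 161 at 95% of the summed CPM (15.1%). With a spacer of 1 base the X-box was in 2 members. Members under 50% for both codons (15) were 12 to 15 in the added alternatives. Of 365 values of single members in rods under an alternative, 279 moved by less than their counting interval and 1 changed direction; of 245 in cones, 209 and 0. The median of all genes shifted by -0.09 (rods) and 0.13 (cones) on the log2 scale with trimmed-mean scaling and by -0.14 and 0.13 with the median of ratios. No paired analysis was possible because each class is a single column with no library named. Depth limits the ganglion, Müller glia and cone columns most, where 17, 7 and 3 members had 0 counts.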
